A study of Wolfiporia cocos with 12 samples.

Results

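Transcript levels of Wolfiporia cocos were compared between 3 cultures grown on Avicel, a crystalline cellulose, and 3 cultures grown on glucose. Described here are the 10046 gene models, of 12746 in the deposited table, whose mean was at least 1 RPKM (reads per kilobase of model, scaled to library size) on either medium. They were chosen by level alone, and the difference between media played no part. W. cocos strain MD-104 is a basidiomycete fungus, and all cultures were of this strain. For both groups, mycelium from agar plates was put into 250 ml of a defined medium and shaken for 5 days, with glucose as the carbon source in the reference group and Avicel, a microcrystalline cellulose, in the other. Poly-A RNA from 1 µg of total RNA was read as single reads of 100 nt, and all 6 libraries ran on lane 1. Further cultures on ground aspen and ground lodgepole pine, 3 each at 0.5% w/v, ran on lane 2. They enter the shared estimate of the spread and the choice of models tested, and some of their levels are given at the end. The labels name triplicate cultures per medium, and p-values measure the spread between such cultures.

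Wolfiporia causes brown rot, a decay that strips wood of its polysaccharides and leaves a modified lignin behind. Brown-rot fungi lack most of the cellobiohydrolases that other cellulose degraders use, and they pair endoglucanases with a chemical attack in which reduced iron and hydrogen peroxide give hydroxyl radicals. In many fungi glucose keeps genes for plant wall hydrolases low, and sugars released from the wall are taken up by transporters of the major facilitator superfamily. Avicel in a defined medium offers cellulose apart from the other components of wood. Against the glucose cultures, those on Avicel differ both in the cellulose supplied and in the glucose not supplied. The parts of these in the changes below cannot be told apart.

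Replicate cultures were alike on glucose and less so on Avicel. Depth, recovered from the spacing of low values, in units of 1e6 reads, was 17.4 to 21.4 on glucose and 17.8, 15.3 and 9.8 in Avicel cultures 1, 2 and 3, so Avicel culture 3 was the shallowest. In that library 58 low values lay at the spacing taken as 1 read and 4 at 0.5 of it, as few as in the other libraries (0 to 4). In a 1 kb model, 3 reads were worth 0.14 to 0.31 RPKM, a floor that covers counting error only. Avicel cultures 1 and 3 stood apart, with 244 and 224 models at least 2-fold away from both other cultures of the group, against 109 for Avicel culture 2 and 32 to 105 on glucose. The median SD of log2(RPKM + 1) between cultures was 0.23 on Avicel and 0.18 on glucose.

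A model was called when the limma adjusted p was under 0.05 and the change at least 2-fold on the log2(RPKM + 1) scale, which understates changes of weakly expressed models. On this rule 170 models, or 1.69% of the 10046, differed between the media. Higher on Avicel were 98 (0.976%) and lower were 72 (0.717%). The median log2 change over all members was -0.18, so a change of 0 already lies above the middle of the distribution. At an unadjusted limma p under 0.05, 474 members (4.72%) were higher and 1923 (19.1%) lower, which is the background for the unadjusted counts given below. When each library was centred on its median, 116 models were called higher and 42 lower. The call held in every fit that left out 1 of the 12 libraries for 69 of the 170 models, 39 higher and 30 lower, and these are named stable calls below. The other 101 were lost in at least 1 such fit. Without glucose culture 1, 2 or 3 the counts higher and lower were 64 and 45, 52 and 41, and 54 and 54. Without Avicel culture 1, 2 or 3 they were 118 and 46, 88 and 102, and 74 and 58.

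**Figure D1:**
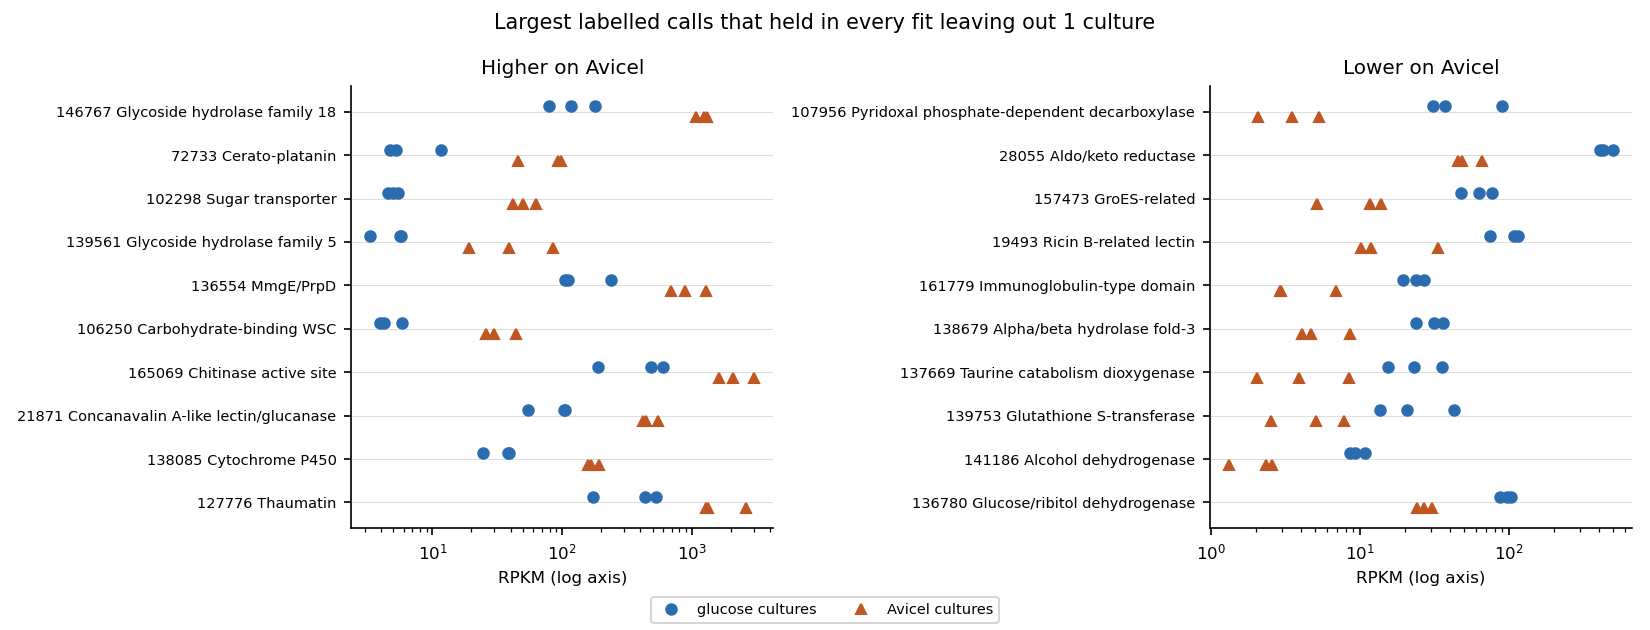
RPKM (log axis) in each of the 3 glucose cultures (circles) and the 3 Avicel cultures (triangles) for the 10 largest rises (left) and the 10 largest falls (right) among stable calls with an InterPro label. In each of these 20 models, as in all 170 called models, the values of the 2 media do not overlap. For GH18 146767 they were 78.8 to 179 RPKM on glucose against 1074 to 1313 on Avicel. Over all members, every Avicel value was above every glucose value in 4.95% and below in 24.9%.

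Of the cellulases and wall-loosening proteins, 2 of 25 members rose and none fell, both of them in glycoside hydrolase family 5 (GH5), a family that holds endoglucanases and mannanases. GH5 139561 stood at 5.76, 5.62 and 3.32 RPKM on glucose and at 19.0, 39.0 and 85.1 RPKM on Avicel. Every Avicel culture was above every glucose culture, and the call was stable (log2 change 2.83, SE 0.46, limma adjusted p = 0.00861). GH5 101537 stood at 11.6, 10.5 and 14.8 RPKM on glucose and 21.7, 31.6 and 27.6 on Avicel. Its rise of 1.07 on the log2 scale (SE 0.19, adjusted p = 0.0117) was near the fold limit and was lost without glucose culture 2 (0.97) or Avicel culture 2 (0.95). The median log2 change of the list was -0.13, close to that of all members. By far its most abundant member was the barwin-related endoglucanase 156377, a small protein with the fold of expansins and GH45 enzymes, at 15554, 22332 and 13233 RPKM on glucose and 19261, 16221 and 17714 on Avicel. The 2 groups overlapped, and the log2 change was 0.09 (SE 0.37, adjusted p = 0.9). The 1 member among lytic polysaccharide monooxygenases, oxidative enzymes that cut crystalline polysaccharides and are labelled here as GH61, was 134838. It read 13.8, 8.91 and 12.5 RPKM on glucose and 17.6, 16.2 and 11.2 on Avicel, with overlapping groups and an unadjusted p of 0.265.

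Beta-glucosidases of families GH1 and GH3, which release glucose from cellobiose, had no called member among 9, with 5 higher and 0 lower at an unadjusted limma p under 0.05. Their median log2 change was 0.48, and 7 of 9 changes were above 0, against 2567 of 10046 over all members. GH3 29607 stood at 46.5, 40.3 and 38.0 RPKM on glucose and 81.1, 71.5 and 63.1 on Avicel. These groups did not overlap and the adjusted p was 0.0108, but the log2 change of 0.77 was under the fold limit. GH3 137577 (log2 change 1.56) and GH1 78411 (1.36) passed the fold limit with an adjusted p of 0.0644 each. Without Avicel culture 1 both were called, at 2.13 (adjusted p = 0.00458) and 1.84 (adjusted p = 0.00741).

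Hemicellulases had the highest median change of the lists with more than 1 member, at 0.89, and 4 of their 14 members rose. None of the 4 calls was stable. GH10 164484, of a family of endoxylanases, which cut the xylan backbone, stood at 35.7, 36.4 and 25.2 RPKM on glucose and at 132, 1026 and 1701 RPKM on Avicel. All Avicel cultures were higher, but they spanned more than 10-fold among themselves. The log2 change was 4.22 (SE 0.79, adjusted p = 0.0174), and the call was lost without any 1 of the glucose cultures or without Avicel culture 3 (highest adjusted p = 0.0632). The alpha-L-arabinofuranosidases 19345 and 77451, which remove arabinose side chains, lie next to each other on scaffold 9 with starts 4.1 kb apart. Model 19345 stood at 22.1, 21.1 and 21.9 RPKM on glucose and 104, 72.7 and 131 on Avicel (log2 change 2.15 with SE 0.5, adjusted p = 0.0447). Model 77451 read 103, 131 and 78.5 RPKM on glucose against 192, 253 and 342 on Avicel (log2 change 1.32 with SE 0.25, adjusted p = 0.0188). In neither did the groups overlap, but 19345 lost its call without any 1 of the 6 glucose and Avicel cultures (highest adjusted p = 0.133), and 77451 without glucose culture 1 or 3 or Avicel culture 3 (highest 0.0684). The fourth, GH2 24785, of a family with beta-galactosidases and beta-mannosidases, rose from 30.0 ± 5.35 to 64.0 ± 18.1 RPKM (mean ± SD, n = 3; log2 change 1.05, SE 0.19, adjusted p = 0.0144) and was lost without glucose culture 3 or Avicel culture 2 (highest adjusted p = 0.0576). The number of called hemicellulases was 1, 2 and 0 without glucose culture 1, 2 and 3, and 2 and 1 without Avicel culture 2 and 3.

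Among 15 pectinases, 1 rose. Model 23116, of the pectin lyase fold, stood at 821, 610 and 331 RPKM on glucose and 1229, 1154 and 1338 on Avicel (log2 change 1.17 with SE 0.27, adjusted p = 0.0435). The Avicel values were all above the glucose values, but the call was lost in 10 of the 12 fits that left out 1 library (highest adjusted p = 0.113). GH28 128405, of the polygalacturonase family, and pectinesterase 165643 had log2 changes of 1.48 and 1.16 and did not pass the test (adjusted p = 0.0651 and 0.0612). The list's count was 0 in 8 of those fits, 2 without aspen culture 2 and 3 without lodgepole pine culture 2.

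A number of plant wall hydrolases were low in Avicel culture 1 and high in the other Avicel cultures, a pattern picked out after the values were seen. GH12 24190, of an endoglucanase family, stood at 229, 309 and 117 RPKM on glucose and at 38.5, 537 and 1809 RPKM on Avicel. Culture 1 lay below every glucose culture and cultures 2 and 3 above, so the groups overlapped (log2 change 0.73 with SE 1.04, adjusted p = 0.689). GH5 141870 showed the same order, with 170, 221 and 104 RPKM on glucose and 95.8, 1247 and 2397 on Avicel (adjusted p = 0.231). GH10 110801 stood at 3.54, 2.92 and 3.06 RPKM on glucose and 6.93, 209 and 402 on Avicel. Here culture 1 was already above glucose, and the log2 change of 4.39 missed the threshold with an adjusted p of 0.053. The same order held in GH10 103638, at 12.5, 94.1 and 146 RPKM on Avicel against 22.4 to 28.5 on glucose, and in GH5 112799, at 5.29, 17.0 and 70.7 against 4.71 to 5.76.

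Over the cellulases, beta-glucosidases and hemicellulases together, 31 of 48 members (64.6%) had their lowest Avicel value in culture 1, against 30.1% of all members. Their highest Avicel value fell in culture 3 for 28 of 48 (58.3%), against 23.2% of all members. The list of cellulases and wall-loosening proteins showed this least, with 56.0% lowest in culture 1 and 44.0% highest in culture 3. These shares were 66.7% and 77.8% for beta-glucosidases and 78.6% and 71.4% for hemicellulases. At least 2-fold above the glucose mean were 4 of the 48 in Avicel culture 1, 16 in culture 2 and 21 in culture 3, against 304, 310 and 407 of all 10046 members. The 15 pectinases showed less of this, with 7 lowest in culture 1, 5 highest in culture 3 and 3, 4 and 4 members at least 2-fold above the glucose mean. Outside the plant wall hydrolases, 54.3% of sugar transporters and 44.4% of the chitin and glucan enzymes were also lowest in culture 1. Their highest value fell in culture 3 for 34.3% and 25.9%. The median SD between the Avicel cultures was 0.6 on the log2 scale for hemicellulases and 0.61 for beta-glucosidases, against 0.23 for all members, while on glucose these lists had 0.23 and 0.26. Without Avicel culture 1, 5 cellulases, 2 beta-glucosidases and 5 hemicellulases were called higher, among them GH10 110801 at a log2 change of 6.13 (adjusted p = 0.000128), GH5 141870 at 3.45 (adjusted p = 0.0248), GH5 112799 at 2.51 (adjusted p = 0.0187) and GH10 103638 at 2.2 (adjusted p = 0.0384). Culture 1 was set apart after its low values in some of these same models were seen. Leaving it out raises their change by that choice, so these adjusted p-values are no test of the pattern. The 48 members above include those models as well. GH12 24190 was not called in any fit that left out 1 library. Avicel culture 3 was also the shallowest library, and the part of depth in this pattern was not tested.

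**Figure D2:**
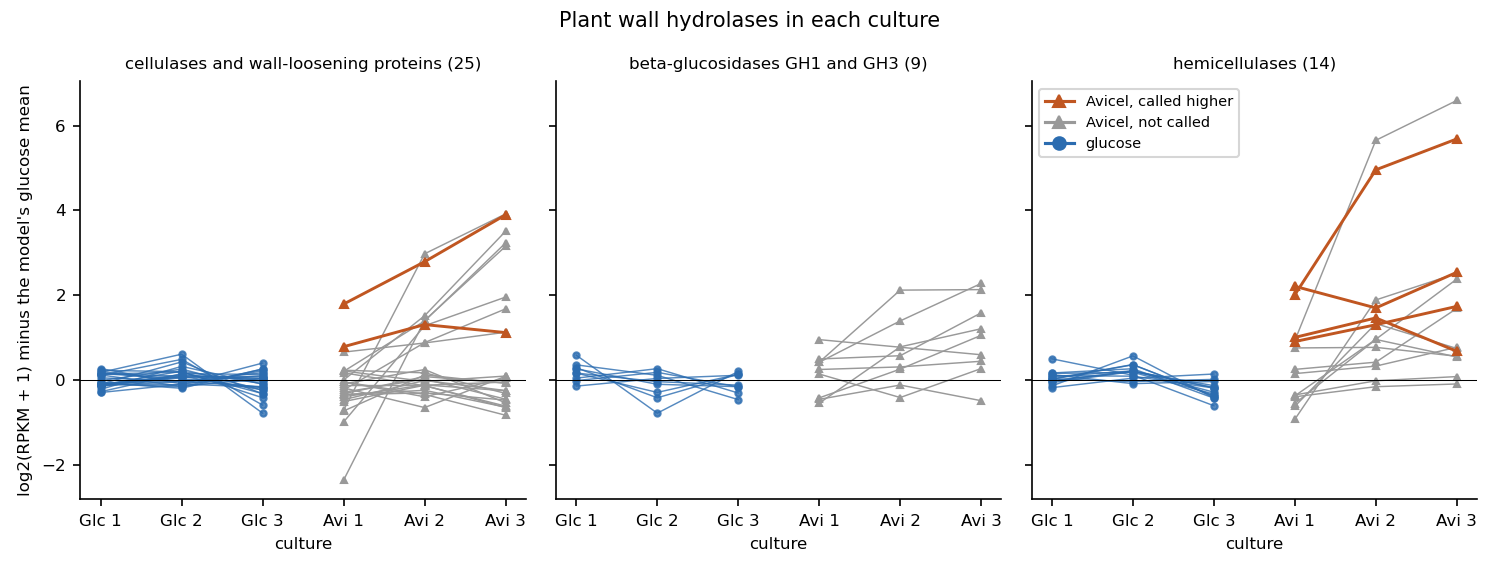
Difference of log2(RPKM + 1) from the model's glucose mean in each culture (glucose cultures 1 to 3, Avicel cultures 1 to 3) for 3 groups of plant wall hydrolases; each line joins the values of 1 model within a medium. Glucose values (circles) stay close to 0, whereas Avicel values (triangles, orange where called) lie mostly near 0 in culture 1, and several reach above 2 in culture 2 or 3.

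Enzymes that act on chitin and glucan of the fungus's own wall rose in 5 of 27 members, and none fell. GH18 146767, of the chitinase family, stood at 179, 118 and 78.8 RPKM on glucose and at 1313, 1074 and 1244 on Avicel. On the log2(RPKM + 1) scale this was the largest stable rise with a label (log2 change 3.33 with SE 0.25, adjusted p = 6.01e-05). Its Avicel cultures differed little. By the means it rose 9.65-fold, less than cerato-platanin 72733 (10.9), sugar transporter 102298 (10.3) and GH5 139561 (9.73). A model labelled with the chitinase active site, 165069, rose from 594, 486 and 190 RPKM on glucose to 2079, 1622 and 3022 on Avicel (log2 change 2.51 with SE 0.43, adjusted p = 0.0117). Its neighbour on scaffold 8, 76203, carries the same label, starts 3.4 kb away with 1 model in between, and rose from 1120 ± 247 to 2823 ± 567 RPKM (n = 3 each; log2 change 1.34, SE 0.25, adjusted p = 0.0173). GH18 89691 rose from 125 ± 53.5 to 430 ± 87.7 RPKM (log2 change 1.83, adjusted p = 0.00379) and GH18 135097 from 117 ± 25.9 to 307 ± 36.2 (log2 change 1.4, adjusted p = 0.0138). Models 146767, 165069 and 89691 were stable calls. The call of 76203 was lost without glucose culture 2 or 3 or Avicel culture 3 (highest adjusted p = 0.0889), and that of 135097 without glucose culture 3 (0.0555), which left 3 in the list. The label with the GH18 catalytic domain had 2 of 6 members called, and the polysaccharide deacetylases, which remove acetyl groups from chitin and related polymers, 2 of 5. Polysaccharide deacetylase 31035 rose from 4.22, 3.53 and 2.75 RPKM on glucose to 19.1, 22.2 and 13.1 on Avicel (log2 change 2.07 with SE 0.19, adjusted p = 0.00027), and 86713 rose from 39.1 ± 13.5 to 98.6 ± 5.35 RPKM (log2 change 1.36, adjusted p = 0.00427). Both deacetylase calls were stable. The median log2 change of the chitin and glucan list was -0.13, against -0.18 over all members.

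Small secreted and lectin-type proteins were called in both directions, 3 higher and 3 lower of 27. Cerato-platanin 72733, of a family of small secreted cysteine-rich proteins of fungi, rose from 5.24, 4.69 and 11.7 RPKM on glucose to 92.6, 45.5 and 97.4 on Avicel (log2 change 3.3 with SE 0.35, adjusted p = 0.000643). Model 106250, with a WSC domain that binds carbohydrate, rose from 4.21, 5.81 and 3.96 RPKM to 44.0, 25.9 and 30.0 (log2 change 2.58 with SE 0.19, adjusted p = 6.01e-05). Thaumatin-like 127776 was far more abundant and rose from 433, 526 and 172 RPKM to 1334, 1288 and 2601 (log2 change 2.27 with SE 0.41, adjusted p = 0.0141). All of these calls were stable. The 3 that fell were ricin B-related lectins, sugar-binding proteins, of which 10 were members. Lectin 19493 fell from 74.2, 108 and 114 RPKM to 10.1, 33.1 and 11.8 (log2 change -2.53 with SE 0.36, adjusted p = 0.00465), and 28640 from 379, 419 and 325 to 109, 131 and 104 (log2 change -1.7 with SE 0.24, adjusted p = 0.00443). The third, 108759, fell from 38.8 ± 5.05 to 14.9 ± 4.66 RPKM (log2 change -1.37, adjusted p = 0.0447), and its call was lost without any 1 glucose culture, without Avicel culture 1 or 3 and in 3 fits without a wood culture (highest adjusted p = 0.146), and also after median centring. The label's median log2 change was -0.6, and 5 of its 10 members had every Avicel value below every glucose value, against 24.9% of all members. Outside the lists, further labels had stable rises, and 2 of these name a lectin. The label of 21871 also names glucanases, so it does not settle whether the protein binds or cuts carbohydrate. Concanavalin A-like lectin or glucanase 21871 stood at 106, 103 and 54.2 RPKM on glucose and 421, 442 and 552 on Avicel (log2 change 2.47 with SE 0.25, adjusted p = 0.000577). Legume lectin 26703 stood at 27.1, 33.4 and 26.3 RPKM on glucose and 61.9, 107 and 103 on Avicel (log2 change 1.58 with SE 0.27, adjusted p = 0.0108). Cupredoxin 97131, of a copper-binding fold and so of another kind, stood at 64.9, 63.5 and 69.7 against 334, 297 and 249 RPKM (log2 change 2.13 with SE 0.26, adjusted p = 0.00167).

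Sugar transporters rose in 6 of 35 members and none fell. Transporter 102298 stood at 5.4, 4.95 and 4.53 RPKM on glucose and 41.6, 62.4 and 49.7 on Avicel, a 10.3-fold rise of the mean with tight replicates on both media (log2 change 3.12 with SE 0.22, adjusted p = 6.01e-05). Transporter 25027 rose from 7.55, 7.75 and 4.99 to 14.8, 26.2 and 38.3 RPKM (log2 change 1.75 with SE 0.29, adjusted p = 0.0103). These 2 calls were stable. General substrate transporter 107257 rose from 6.45 ± 1.22 to 20.7 ± 2.56 RPKM (log2 change 1.55, adjusted p = 0.0146, but 0.0603 without glucose culture 3). The more abundant transporter 104972 rose from 203, 136 and 233 RPKM to 534, 454 and 378 (log2 change 1.27 with SE 0.24, adjusted p = 0.0179), and its call was lost without glucose culture 2 or Avicel culture 1 (highest adjusted p = 0.0771). Without glucose culture 2 or 3 the list kept 3 calls. The median log2 change of the list was 0.04.

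Other carriers rose in smaller shares. Of 61 transporters of peptides, amino acids and ammonium, 3 rose. Oligopeptide transporter 125778 went from 52.6, 38.6 and 53.5 RPKM on glucose to 223, 195 and 200 on Avicel (log2 change 2.08 with SE 0.17, adjusted p = 0.000111), with no overlap and a stable call. A second oligopeptide transporter, 123017, rose from 3.2 ± 0.715 to 11.4 ± 5.31 RPKM (log2 change 1.49, adjusted p = 0.0335) and amino acid transporter 155342 from 118 ± 21.9 to 252 ± 36.8 (log2 change 1.1, adjusted p = 0.00772). The call of 123017 was lost without any 1 glucose culture, Avicel culture 2 or 3 or aspen culture 3 (highest adjusted p = 0.129), and that of 155342 without glucose culture 2, where the list kept 1. The 15 oligopeptide transporters had a median log2 change of 0.46, and 12 of 15 changes were above 0. Of 126 other major facilitator transporters, 3 rose and none fell, a called share of 2.38% against 1.69% over all members. The calls were stable for 127030 (5.28 ± 1.0 to 22.4 ± 6.16 RPKM, adjusted p = 0.000756) and 94573 (74.9 ± 9.38 to 251 ± 46.6 RPKM, adjusted p = 0.00697). The third, 89075 (6.38 ± 0.505 to 15.2 ± 3.56 RPKM, adjusted p = 0.0385), was lost without any 1 glucose culture, Avicel culture 1 or 3 or aspen culture 1 (highest adjusted p = 0.125). Major intrinsic protein 121322, of the family of water and glycerol channels, rose from 98.8, 93.5 and 117 RPKM to 236, 433 and 368 (log2 change 1.7 with SE 0.2, adjusted p = 0.00166). None of 42 ABC transporters, which pump substrates with ATP, was called, and at an unadjusted limma p under 0.05 there were 0 higher and 12 lower, against 4.72% and 19.1% over all members.

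**Figure D3:**
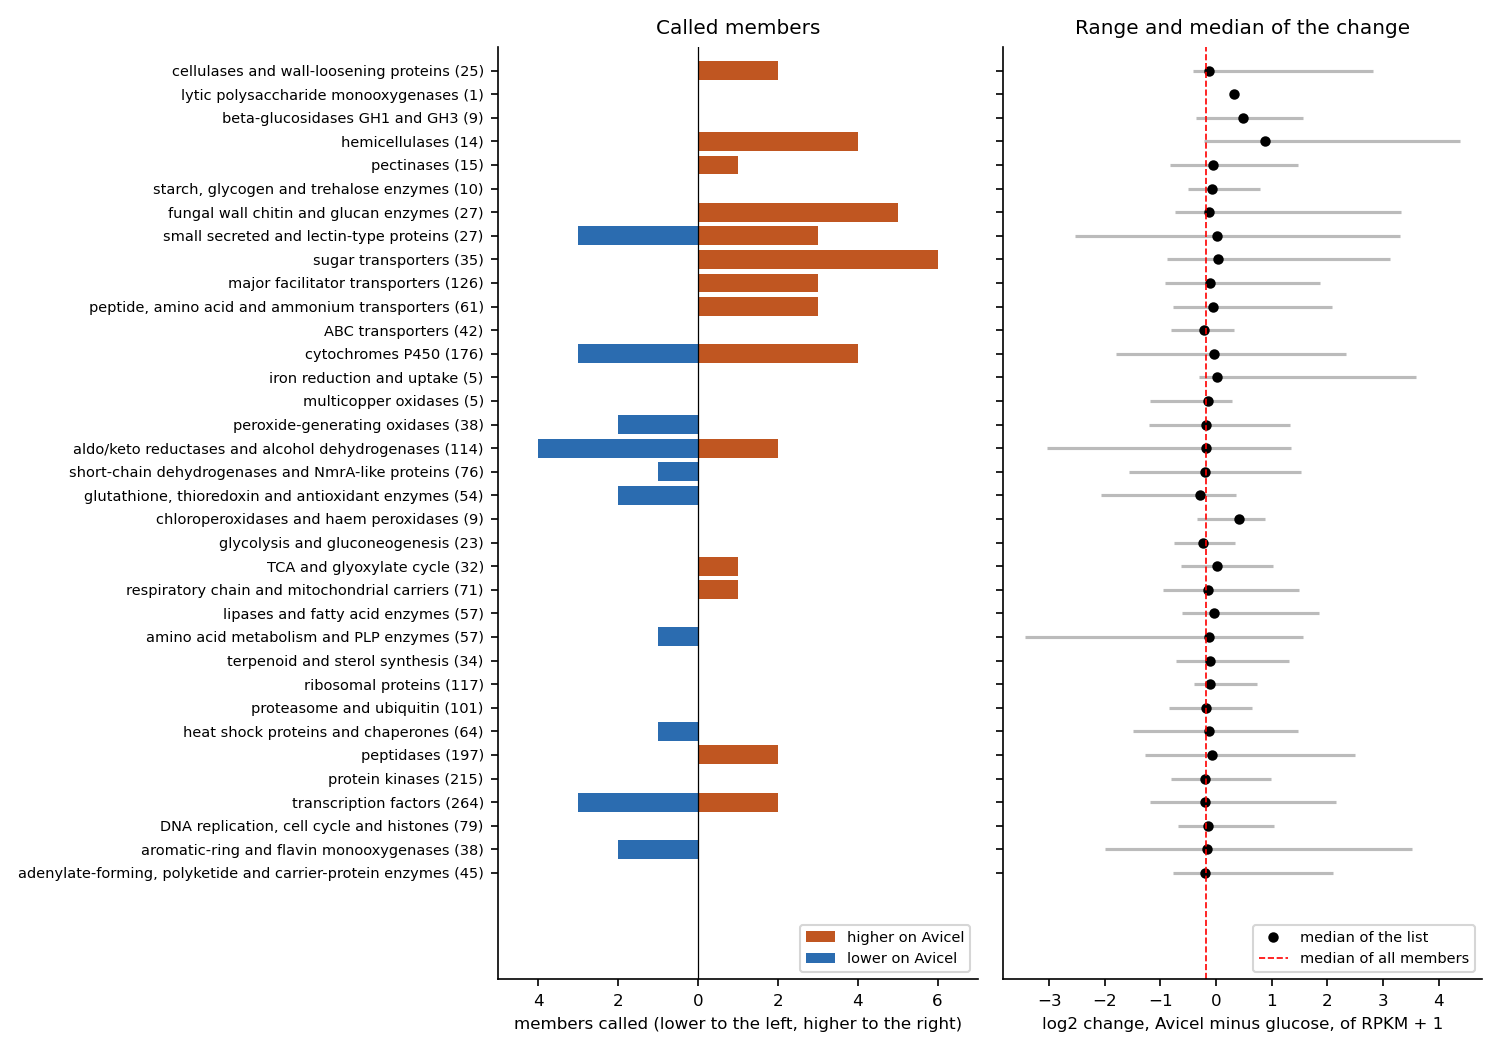
Number of called members (left) and the median and full range of the log2 change of RPKM + 1 (right) for 35 gene lists, with the number of members in parentheses; the dashed line marks the median over all members at -0.18. Called members of the wall and transporter lists lie on the higher side except for 3 lectins, whereas cytochromes P450 and aldo/keto reductases with alcohol dehydrogenases have calls on both sides.

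Central carbon metabolism had called shares of 3.12% in the TCA and glyoxylate cycle, 1.41% in the respiratory list and 0% in glycolysis, against 1.69% over all members. None of 23 members of glycolysis and gluconeogenesis was called, with 0 higher and 6 lower at an unadjusted limma p under 0.05 and a median log2 change of -0.23. In the TCA and glyoxylate cycle, 1 of 32 rose. Model 23619, in the family of isocitrate lyase, the enzyme that lets cells build sugars from acetate, stood at 271, 233 and 155 RPKM on glucose and 456, 444 and 416 on Avicel (log2 change 1.03 with SE 0.2, adjusted p = 0.0193). The groups did not overlap, but the call was lost without glucose culture 2 or 3 or Avicel culture 1 (highest adjusted p = 0.0573). A more abundant model of the same label, 92053, read 2520, 672 and 892 RPKM against 1890, 1471 and 2785, with overlapping groups and an adjusted p of 0.64. Mitochondrial carrier 28083 rose from 26.9 ± 9.08 to 74.5 ± 14.3 RPKM (log2 change 1.46 with SE 0.29, adjusted p = 0.0217), 1 of 71 in the respiratory list, and its call was lost without glucose culture 2 or 3 or Avicel culture 1 or 2 (highest adjusted p = 0.0985). MmgE/PrpD 136554, in the family of methylcitrate dehydratase, an enzyme of propionate breakdown, rose from 236, 106 and 111 RPKM to 1281, 686 and 883 (log2 change 2.7 with SE 0.36, adjusted p = 0.00318), a stable call. In the other direction, glycosyl transferase family 35 model 74282, of the glycogen phosphorylase family, fell from 1203, 1508 and 1010 RPKM on glucose to 325, 511 and 384 on Avicel (log2 change -1.61 with SE 0.28, adjusted p = 0.0121). It had the highest glucose mean of the models called lower, 1241 RPKM, and its call was lost without glucose culture 2 (adjusted p = 0.0573). Neither glycogen synthase 27407 nor any other of the 10 starch, glycogen and trehalose enzymes was called, with 2 higher and 2 lower at an unadjusted limma p under 0.05. GH31 149294 of that list was called without Avicel culture 1 (log2 change 1.29, adjusted p = 0.00674).

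Iron and peroxide chemistry, which brown rot relies on, showed no stable call. None of 5 members for iron reduction and uptake was called, with 1 higher and 0 lower at an unadjusted limma p under 0.05. That 1 was ferric reductase 109665, an enzyme that reduces iron at the cell surface, at 10.7, 11.2 and 6.49 RPKM on glucose and 37.8, 104 and 459 RPKM on Avicel. All Avicel values were above all glucose values, yet the adjusted p was 0.0578 (log2 change 3.59, SE 0.92). It was called without Avicel culture 1 (log2 change 4.42, adjusted p = 0.0329) or without lodgepole pine culture 2 or 3. The other 3 ferric reductases and iron permease 139155 had log2 changes of -0.31 to 0.16. None of 5 multicopper oxidases was called, with 0 at an unadjusted limma p under 0.05 in either direction. Of 38 oxidases that can form hydrogen peroxide, 2 fell and none rose. FAD-linked oxidase 140014 went from 14.7, 11.9 and 12.6 RPKM to 4.01, 4.44 and 7.39 (log2 change -1.2 with SE 0.21, adjusted p = 0.0116), and without glucose culture 1 its adjusted p was 0.0506. Glucose-methanol-choline oxidoreductase 25722, of the family of glucose, alcohol and aryl-alcohol oxidases, went from 22.6 ± 5.93 to 10.5 ± 3.26 RPKM (log2 change -1.05, adjusted p = 0.0377), and was lost in 8 of the 12 fits without 1 library, those without glucose culture 1 or 2 and Avicel culture 1 or 3 among them (highest adjusted p = 0.146). After median centring 25722 was no longer called. None of 9 chloroperoxidases and haem peroxidases was called, with 2 higher and 0 lower at an unadjusted limma p under 0.05.

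The 2 largest stable falls with a label were in a decarboxylase and an aldo/keto reductase. Pyridoxal phosphate-dependent decarboxylase 107956, of a family that removes carbon dioxide from amino acids, stood at 37.0, 90.0 and 30.7 RPKM on glucose and 2.08, 3.49 and 5.27 on Avicel (log2 change -3.44 with SE 0.35, adjusted p = 0.000577). Aldo/keto reductase 28055, of a family that reduces aldehydes and ketones with NADPH, fell from 404, 496 and 426 RPKM to 45.5, 65.4 and 48.6 (log2 change -3.04 with SE 0.2, adjusted p = 5.97e-05). Both calls were stable, with a wide gap between the groups. In the list of aldo/keto reductases and alcohol dehydrogenases 4 of 114 members fell and 2 rose. Aldo/keto reductase 138136 (184 ± 46.2 to 61.8 ± 16.9 RPKM, adjusted p = 0.00788) and alcohol dehydrogenase 141186 (9.56 ± 1.1 to 2.08 ± 0.666 RPKM, adjusted p = 0.00629) were stable falls. The rises of 25098 and 163585 were not stable, with highest adjusted p-values of 0.0813 and 0.07 (0 rises without glucose culture 1 or 3, 1 without any 1 Avicel culture). A model labelled GroES-related, 157473, a domain that these dehydrogenases share with chaperonins, fell from 62.9, 76.4 and 47.4 RPKM to 5.11, 13.8 and 11.6 (log2 change -2.57 with SE 0.32, adjusted p = 0.00206). Glucose/ribitol dehydrogenase 136780, a short-chain dehydrogenase, fell from 95.5 ± 8.22 to 27.1 ± 3.23 RPKM (log2 change -1.78, adjusted p = 0.0031). The list of short-chain dehydrogenases and NmrA-like proteins leaves out the glucose/ribitol dehydrogenase label, in which 1 of 41 members rose and 2 fell. Among the 76 members of the list, the 1 call (1.32%, against 1.69% over all members) was NmrA-like 164314, of the same broad fold. It fell from 15.7 ± 1.25 to 7.39 ± 1.14 RPKM (log2 change -1.0, adjusted p = 0.0192), and its call was lost without any 1 glucose culture, without Avicel culture 1 or after median centring.

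Of 54 members of the glutathione, thioredoxin and antioxidant list, 2 fell and none rose. Glutathione S-transferases, which join glutathione to reactive compounds, gave both. Model 22163 fell from 187, 163 and 145 RPKM to 62.2, 80.5 and 64.3 (log2 change -1.25 with SE 0.2, adjusted p = 0.00874), and 139753 from 20.8, 42.7 and 13.6 to 2.53, 5.08 and 7.78 (log2 change -2.07 with SE 0.37, adjusted p = 0.0144). Both were stable. The list's median log2 change was -0.29, with 2 higher and 23 lower at an unadjusted limma p under 0.05. Over all members these shares were 4.72% and 19.1%. Stable falls outside these lists or in others included model 161779, which carries an immunoglobulin-type site (23.4 ± 3.72 to 4.24 ± 2.27 RPKM, adjusted p = 0.00106), and TauD-type dioxygenase 137669 (24.6 ± 10.3 to 4.78 ± 3.29 RPKM, adjusted p = 0.0112). Also among them were alpha/beta hydrolase 138679 (30.2 ± 6.15 to 5.81 ± 2.44 RPKM, adjusted p = 0.000577) and aromatic-ring hydroxylase 140507 (179 ± 12 to 86.4 ± 2.75 RPKM, adjusted p = 0.0108). The last of these was not called after median centring. Heat shock proteins had 1 call among 64 (1.56%, against 1.69% over all members). It was HSP20-like chaperone 85445, which fell from 9.41, 12.3 and 13.3 to 4.01, 3.33 and 3.12 RPKM (log2 change -1.49 with SE 0.2, adjusted p = 0.00318). At an unadjusted limma p under 0.05 that list had 9 higher and 5 lower, and the 7 models under the label of heat shock protein Hsp20, none of them called, had a median log2 change of 0.69 with 6 above 0.

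Cytochromes P450, haem monooxygenases with many substrates, were called in both directions, 4 higher and 3 lower of 176. P450 138085 rose from 38.5, 24.4 and 38.7 RPKM to 167, 192 and 159 (log2 change 2.34 with SE 0.35, adjusted p = 0.00599), and 104807 from 31.0, 26.9 and 32.3 to 85.3, 86.8 and 77.2 (log2 change 1.44 with SE 0.23, adjusted p = 0.00844). Both were stable, with Avicel cultures close together. Neither 24176 (1.73 ± 0.35 to 15.1 ± 11.8 RPKM; lost without any 1 glucose culture, Avicel culture 1 or 2 or aspen culture 1, highest adjusted p = 0.111) nor 136784 (18.9 ± 3.56 to 41.0 ± 5.48 RPKM; lost without glucose culture 1 or 2 or Avicel culture 1, highest 0.0837) was. No fall was stable. P450 136915 went from 174, 254 and 152 RPKM to 23.0, 85.1 and 78.5 (adjusted p = 0.0467, at most 0.154 without 1 library). The falls numbered 5 without Avicel culture 2, 1 without glucose culture 1, and 0 without glucose culture 2 or 3, Avicel culture 1 or 3, any 1 aspen culture or lodgepole pine culture 3. The rises numbered 2 without glucose culture 1 or 2 or Avicel culture 1. After median centring the counts were 6 higher and 0 lower.

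Of 264 transcription factors 2 rose and 3 fell, a share of 1.89% against 1.69% over all members. All 5 of these calls carry the label of fungal transcriptional regulatory proteins, the zinc-cluster factors of fungi, which had 67 members. Factor 166519 rose from 15.6, 9.34 and 17.2 RPKM to 105, 59.0 and 43.0 (log2 change 2.16 with SE 0.32, adjusted p = 0.00564), a stable call with no overlap. Factor 142321 rose from 16.6 ± 3.18 to 39.1 ± 7.4 RPKM (adjusted p = 0.0144) and was lost without glucose culture 2 or 3 (highest adjusted p = 0.0647). The 3 that fell, 161707 (115 ± 4.56 to 51.8 ± 13 RPKM), 161704 (23.5 ± 1.19 to 10.7 ± 1.97) and 23609 (138 ± 15 to 65.6 ± 18.9), were not called without Avicel culture 1 or after median centring, and 23609 was also lost without glucose culture 1 or 2. Falls in the list numbered 7 without Avicel culture 2, 5 without glucose culture 3 and 0 without Avicel culture 1. None of 215 protein kinases was called, with 3 higher and 48 lower at an unadjusted limma p under 0.05, against 4.72% and 19.1% over all members.

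The lists of ribosomal proteins, of proteasome and ubiquitin genes, and of DNA replication, the cell cycle and histones had no call. Of 117 ribosomal proteins 0 were higher and 1 lower at an unadjusted limma p under 0.05, with a median log2 change of -0.1. Proteasome and ubiquitin genes had 0 higher and 18 lower of 101, and genes of DNA replication, the cell cycle and histones 2 higher and 6 lower of 79. In all, 15 of the 35 lists held no called member. They had 752 members, of which 34 were higher and 115 lower at an unadjusted limma p under 0.05. Over all members 474 and 1923 of 10046 were. In fits without 1 library at most 2 members of such a list were called higher and at most 1 lower. Peptidases had 2 rises and no fall among 197, a called share of 1.02% against 1.69% over all members. Both rises were in family A1 of aspartic peptidases. At an unadjusted limma p under 0.05 the list had 18 higher and 40 lower. Peptidase 141137 rose from 265 ± 28.2 to 544 ± 111 RPKM (adjusted p = 0.00862) and 95820 from 6.1 ± 0.0432 to 21.8 ± 12.5 (adjusted p = 0.019), the former lost without glucose culture 2 or Avicel culture 1 or 3 and the latter without any 1 glucose culture. Peptidase calls numbered 7 higher without Avicel culture 1, 4 without Avicel culture 2, 1 without glucose culture 3 and 0 without glucose culture 2.

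The changes were spread over many protein families. Of 266 InterPro labels with at least 5 members, 50 had a called member, 16 had at least 2 and 7 at least 3. By number of rises the sugar transporter label came first, with 5 of 23, and 7 labels had calls in both directions. Poly(ADP-ribose) polymerases, which attach ADP-ribose chains to proteins, fell in 2 of 5 members. Model 139106 went from 120 ± 13.9 to 58.9 ± 14.2 RPKM (log2 change -1.04, adjusted p = 0.0362) and 119987 from 47.0 ± 3.67 to 21.4 ± 4.4 (log2 change -1.12, adjusted p = 0.0467). Both of these were picked out for their family after their values were seen, and neither was called without any 1 glucose culture, without Avicel culture 1 or 3 or after median centring (highest adjusted p = 0.136).

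Models without an InterPro label made up 53 of the 170 calls, against 3665 of the 10046 members, and included the most abundant transcript that rose. Model 167658 stood at 1244, 3362 and 448 RPKM on glucose and at 26904, 11953 and 39809 RPKM on Avicel. It had the second highest mean on Avicel, and the groups did not overlap (log2 change 4.24 with SE 0.84, adjusted p = 0.0205). The call was lost without glucose culture 1 or 3 or Avicel culture 1 or 3 (highest adjusted p = 0.0746). The stable rises without a label were led by 152037, from 82.5, 63.1 and 175 RPKM to 688, 781 and 762 (log2 change 2.92 with SE 0.34, adjusted p = 0.00139), followed by 17517 (52.3 ± 26.9 to 306 ± 87.0 RPKM), 166574 (5.86 ± 0.311 to 33.2 ± 14.7) and 102624 (81.8 ± 25.2 to 331 ± 112). The largest fall of all was in 146011, from 55.6, 172 and 71.9 RPKM to 2.41, 3.94 and 11.6 (log2 change -3.91 with SE 0.51, adjusted p = 0.00256). Among stable falls without a label it was followed by 137708 (12.4 ± 2.22 to 2.78 ± 0.676 RPKM), 136394 (227 ± 77.6 to 68.2 ± 21.7) and 136975 (475 ± 44.2 to 148 ± 42.4). Unlabelled 161778 fell more than these (log2 change -2.64), but its call was lost without any 1 glucose culture or Avicel culture 3. Of the 5 most abundant models on each medium 4 were shared, and those 4 were not called. Besides endoglucanase 156377 they were unlabelled 75032 (19584 ± 10517 on glucose and 31190 ± 13131 RPKM on Avicel), 137127 (16395 ± 1118 and 19550 ± 5033) and 28164 (7278 ± 2670 and 5082 ± 619). The other model on glucose, 136861, read 7294 ± 2589 against 3716 ± 659 RPKM (adjusted p = 0.0967).

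Some called models lay close together on the scaffolds of the deposited table. In 15 pairs the starts were within 10 kb, with 29 models in all and up to 2 models in between. Of these pairs, 13 moved in the same direction, and no pair overlapped. Pairs among models that were not called were not counted, so these numbers have no background here. The pair with the largest change was 107956 and 146011, the decarboxylase and the unlabelled model that fell most, at 859021 to 862784 and 864191 to 865114 on scaffold 13 with no model between them. On scaffold 14, unlabelled 20581 (log2 change -1.95), tetratricopeptide protein 28639 (-1.3) and ricin B-related lectin 28640 (-1.7) lay in a row, with start distances of 3.9 and 3.3 kb, and only the call of 20581 among them was not stable (lost without glucose culture 1 or 2 or any 1 Avicel culture, highest adjusted p = 0.13). Aldo/keto reductase 28055 and FAD-linked oxidase 140014 were neighbours 9.0 kb apart on scaffold 12. Among rises, the 2 chitinase models and the 2 arabinofuranosidases above were such pairs. Another was unlabelled 163355 and 101165, whose starts lay 0.9 kb apart on scaffold 4, with log2 changes of 1.85 and 1.9 and stable calls. The remaining rising pairs were pheromone receptor-type 73615 with unlabelled 164101 (1.38 and 1.24), P450 104807 with oxidoreductase 138848 (1.44 and 1.29), and unlabelled 141124 with glucose/ribitol dehydrogenase 167825 (1.4 and 1.21). The remaining falling pairs were chorismate mutase 23744 with prefoldin 161984 (-1.32 and -1.26), 38407, a conserved hypothetical protein, with poly(ADP-ribose) polymerase 139106 (-1.27 and -1.04), and aromatic-ring hydroxylase 140507 with unlabelled 140509 (-1.04 and -1.65). Of these 12 models, 104807, 138848, 141124, 23744, 38407 and 140507 were stable calls. The other 6 were lost without glucose culture 2 or 3 or Avicel culture 1. In the opposite pairs, dehydrogenase 74181 fell (-1.16) beside GH13 121018, of the alpha-amylase family, which rose (1.7), and flavin monooxygenase 162310 fell (-1.22) near alpha/beta hydrolase 67952, which rose (1.55). Of these 4 only the call of 74181 was stable, and it was lost after median centring, while 121018 was lost without glucose culture 1 or 3 or Avicel culture 1 or 3, and both 162310 and 67952 without any 1 glucose culture. The sources used here do not state strand-specific counting, so models that share a transcribed stretch could share reads.

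Predicted secretion differed between the directions. A signal peptide probability of at least 0.9 was deposited for 716 members (7.13%), for 26 of the 98 models that rose (26.5%) and for 3 of the 72 that fell (4.17%). Among the secreted risers were GH18 146767, cerato-platanin 72733, GH10 164484, chitinase 165069, thaumatin-like 127776 and metallophosphoesterase 167014, which went from 36.9, 38.5 and 40.4 RPKM to 146, 117 and 115 (log2 change 1.67 with SE 0.17, adjusted p = 0.000577). GH5 139561 and the WSC protein 106250 carried no deposited probability.

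Protein scores from mass spectrometry were deposited as 1 value per medium, so they have no replicate error. The emPAI score rises with the share of a protein's peptides that were observed. Peptides numbered 2298 on glucose and 1260 on Avicel over 704 scored models, and 141 of 462 models detected on either medium scored higher on Avicel. Of the called models, 22 were detected on either medium. The score was higher on Avicel for 14 of the 17 that rose in transcript and lower for 4 of the 5 that fell. Most models detected on either medium did not score higher on Avicel, which is the background for both counts. Several of the 14 had the same number of peptides on both media, namely 21871 (2), 19345 (3), 77451 (6), 23116 (5), 138259 (4) and 141137 (2). Unlabelled 167658 had the highest score of these, 7.53 on glucose and 55.7 on Avicel, from 12 and 15 peptides. MmgE/PrpD 136554 went from 5.7 to 10.0, GH10 164484 from 0.514 to 0.983 and lectin or glucanase 21871 from 0.332 to 0.931. GH18 146767 had no peptide on glucose and 4 on Avicel, for a score of 0.636. Arabinofuranosidase 19345 went from 0.348 to 0.531 and GH13 121018 from 1.18 to 3.5. Among the falls, decarboxylase 107956 went from 0.614 to 0.282 and GT35 74282 from 1.74 to 0.688, and GroES-related 157473 had 4 peptides on glucose and none on Avicel. The rise of isocitrate lyase-type 23619 had no counterpart, with scores of 0.641 on glucose and 0.276 on Avicel. GH12 24190, whose transcript differed widely among the Avicel cultures, scored 15.5 on glucose and 34.6 on Avicel, each from 2 peptides. GH5 141870, with the same order of transcript levels, went the other way, from 4.45 to 1.77 with 4 peptides each, and GH5 26252 had 2 peptides on glucose (0.259) and none on Avicel.

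**Figure D4:**
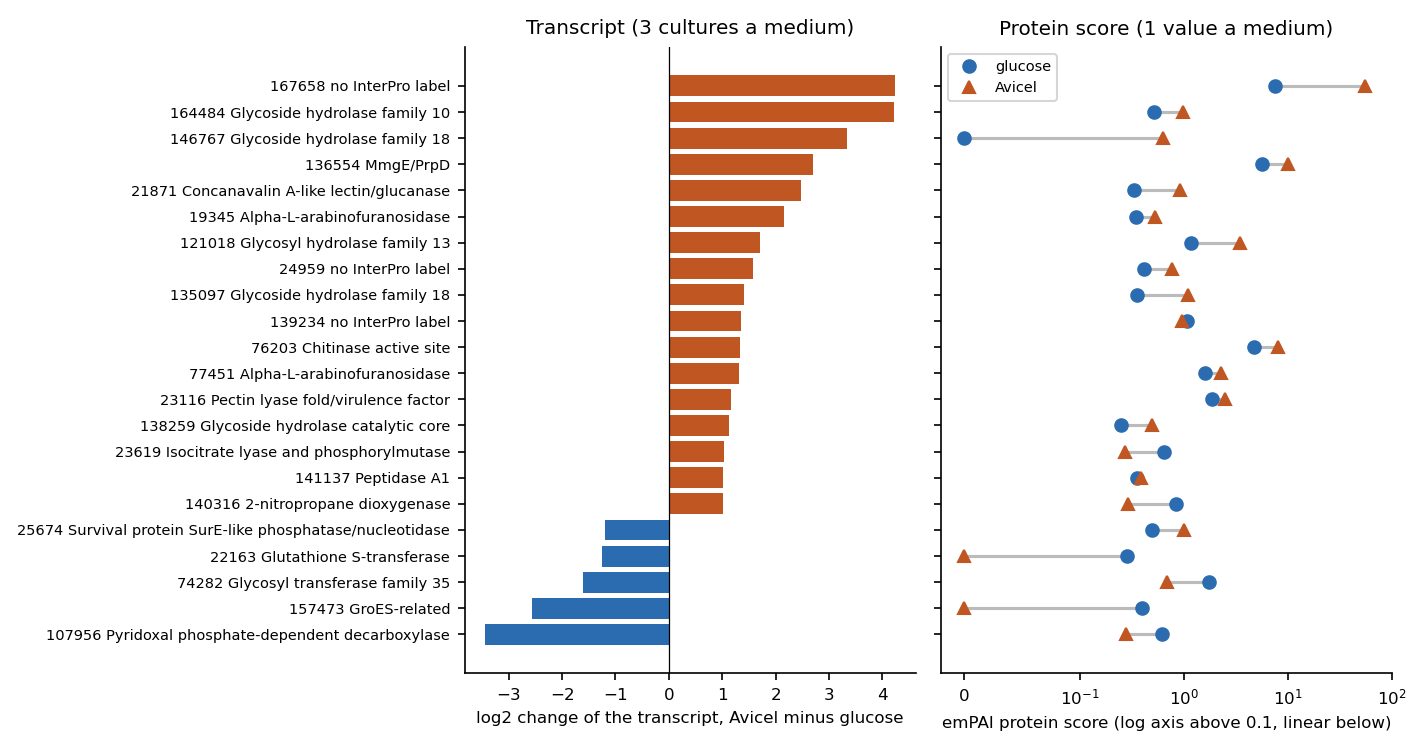
Log2 change of the transcript between Avicel and glucose (left, bars) and emPAI protein score on glucose (circle) and Avicel (triangle; right, log axis above 0.1) for the 22 called models detected as protein on either medium. The score is higher on Avicel for 14 of 17 models whose transcript rose and lower for 4 of 5 whose transcript fell. Of all 462 models detected on either medium, 141 scored higher on Avicel.

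Levels of the leading models on wood, from the other lane, stood on either side of those on Avicel. Cerato-platanin 72733 averaged 78.5 RPKM on Avicel and read 3320 to 5091 RPKM on aspen and 3146 to 5020 on lodgepole pine, and sugar transporter 102298 averaged 51.2 RPKM on Avicel, 835 on aspen and 1305 on pine. GH18 146767 averaged 1210 RPKM on Avicel, 2672 on aspen and 2058 on pine. The hydrolases that varied among the Avicel cultures did not share 1 pattern on wood. GH10 164484 averaged 949 RPKM on aspen and 963 on pine, close to the Avicel mean of 953. GH12 24190 averaged 8.1 and 17.4 RPKM on the woods and GH10 110801 3.31 and 2.74, below every value of Avicel cultures 2 and 3. Medium and lane cannot be told apart in these levels, and they were not tested.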

How the data were processed

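Per the labels, triplicate cultures were grown per medium. The submitters' processing notes list CASAVA 1.8.2. The aligner, counting tool, strand setting and assembly were not given in the sources used here. A reference genome was not part of the work. Values per library were taken as RPKM deposited by the authors, a unit inferred from the values because no header names it. The authors also deposited signal peptide probabilities as a fraction, emPAI scores with peptide numbers, scaffold coordinates, InterPro labels, and p-values for Avicel against glucose by a test the sources do not name. Depth was recovered from the RPKM of a single read in models with few or no introns.

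All 12 libraries entered 1 linear model in limma 3.58.1 (R 4.3.3) on log2(RPKM + 1), with 4 group means, the contrast Avicel minus glucose and a trended empirical Bayes prior (8 residual and 3.64 prior degrees of freedom). Tested were 10184 models with a mean of at least 1 RPKM in any medium. Calls needed a Benjamini-Hochberg adjusted p under 0.05 over these and a fold of at least 2. A stable call was also called in each of the 6 fits that left out 1 glucose or 1 Avicel library, and the same 69 models held in all 12 fits that left out any 1 library. The procedure was checked on simulated data, with 1 spread per model shared by all media. That check does not cover the wider spread between Avicel cultures. Alternatives were other pseudocounts, filters, scalings, fold limits and samples in the fit, a replicate block, and each library left out.

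Named were the 10 largest labelled and 4 largest unlabelled stable calls in each direction, up to 4 called members with the lowest adjusted p in each list, the 5 most abundant models per medium, called models with starts within 10 kb of each other, and up to 10 called models detected as protein. The members, the 35 lists and the naming rule were chosen with earlier results of these data known, and some list members were removed, and 2 lists and 1 label added, after reading labels but not values. Other models named, such as members that were not called, were chosen after their values were seen. Lists are words in InterPro labels, which give a family and do not settle an activity. No sequence was used.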

Additional observations from a re-analysis of the deposited data

How the results depend on the processing

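With 170 models called in the reported fit (98 higher, 72 lower), leaving out 1 library at a time gave 93 to 190 in all, 52 to 118 higher and 41 to 102 lower. The total was 315 with no fold threshold (192 lower) and 39 with a fold of at least 4 (27 higher, 12 lower). Median centring gave 42 lower and quantile normalization 47. The replicate block, with replicate number as a term in the model, gave 107 higher and 68 lower, and with only glucose and Avicel libraries 103 in all, 32 of them lower. Deviations of same-numbered glucose and Avicel cultures correlated at -0.02, -0.08 and -0.23 across models, and no glucose culture correlated best with its own number. With so few cultures per medium, these values cannot decide whether same-numbered cultures shared a batch. The wood cultures were not compared in this way, so pairing by number across all media was not tested. Pseudocounts of 0.5 and 5, other filters on low values, no intensity trend and a fit of 6 libraries kept each count within 1.5 times. Of the 69 stable calls, 61 were kept with a pseudocount of 5, 66 with median centring, 67 with quantile normalization, 68 in the 6-library fit and 55 with the block in that fit. No named model changed direction in any of these. The cause of these differences was not tested. A fit without 1 culture has fewer samples.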

Other observations

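Several models outside the wall hydrolases also differed widely among the Avicel cultures, and none was called. They were picked for their spread. Model 99308, labelled GPR1/FUN34/yaaH, of a family linked to acetate transport, read 10.2, 8.96 and 6.19 RPKM on glucose and 7.74, 74.1 and 703 on Avicel (limma adjusted p = 0.132). Hydrophobin 141043, of the small proteins that coat fungal surfaces, read 2.39, 2.57 and 2.11 RPKM on glucose and 1.26, 5.59 and 46.1 on Avicel (adjusted p = 0.286). O-methyltransferase 107010 read 8.81, 19.7 and 152 RPKM on Avicel against 10.0 to 13.9 on glucose (adjusted p = 0.303). Unlabelled 145870, with a deposited signal peptide probability of 1.0, read 19.6, 428 and 1908 RPKM on Avicel against 297 to 449 on glucose. In each of these, as in GH12 24190, Avicel culture 1 was lowest and culture 3 highest. Unlabelled 23007 ran the other way, at 495, 88.1 and 25.2 RPKM on Avicel against 21.5 to 122 on glucose.

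NLI interacting factor 137426 was listed at 0 in glucose culture 1 and Avicel culture 2 and at 55.5 to 67.6 RPKM in the other 4 cultures. It was also listed at 0 in aspen cultures 1 and 3 and in lodgepole pine culture 3, against 52.3 to 58.6 RPKM elsewhere on wood.

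In the authors' deposited table, 628 of 10040 members with a p-value for Avicel against glucose had a p under 0.05, with no adjustment or fold limit recorded. These 628 included 162 of the 170 models called here (95.3% of the calls and 25.8% of the 628) and all 69 stable calls.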
